A study of Caenorhabditis elegans with 24 samples.

Results

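The emerin contact map of muscle with wild-type lamin was drawn from 6 DamID libraries of Caenorhabditis elegans, out of 24 libraries in the series. They are the 3 Dam-EMR libraries and the 3 GFP-Dam libraries of the strain pair labelled GFP-LMN, defined by these labels and paired by replicate round. The choice was made with earlier results of these data known. Dam-EMR animals carried emerin fused to the bacterial methyltransferase Dam together with wild-type GFP::LMN-1 lamin, and GFP-Dam animals carried Dam fused to GFP together with the same lamin. Both were wild type for cec-4, whose product anchors methylated histone H3 at the nuclear envelope, and both fed on E. coli without Dam. The other 18 libraries hold the same 2 fusions in strains with the mutation cec-4(ok3124), the lamin change Y59C, or both, and serve here only for the comparison of strains at the end.

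In all 6 libraries the fusion stood behind the promoter of hsp-16.41 and was left without heat shock, so that only traces of protein were made, and recombination driven by FLP under the myo-3 promoter restricted it to one tissue. The sample labels name that tissue as body wall muscle, and myo-3 encodes a body wall muscle myosin, whereas the design text names the intestine. Larvae at the L3/L4 stage were harvested after 26 h at 22.5 °C. Each round was a biological replicate in which all strains were grown in parallel, and no heat shock or drug distinguishes the groups.

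Emerin is a LEM domain protein of the inner nuclear membrane that binds lamin and the chromatin protein BAF. A Dam fusion adds methyl groups to the adenine of GATC sites that it meets, and DpnI, which cuts only methylated GATC, releases those sites for amplification. Free GFP-Dam roams the nucleus and reports how open each site is, so the contact of DNA with emerin is read from Dam-EMR reads divided by GFP-Dam reads. In worm nuclei the arms of the autosomes, rich in repeats and in histone H3 lysine 9 methylation, are known to lie at the envelope more often than the centres, and the X chromosome is known to be anchored mainly near its left end.

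The Dam-EMR libraries were much shallower than their partners. Rounds 1, 2 and 3 gave 903351, 547403 and 3121281 mapped reads with Dam-EMR, against 16650524, 2728755 and 8191693 reads with GFP-Dam. The median 100 kb bin held 585, 399 and 1884 Dam-EMR reads, against 10875, 2037 and 4849 GFP-Dam reads. In 10 kb bins the medians were 25, 21 and 78 with Dam-EMR and 468, 107 and 248 with GFP-Dam. Empty 10 kb bins made up 11.4%, 8.22% and 5.82% of the Dam-EMR libraries, against 0.838%, 1.51% and 0.858% of the GFP-Dam libraries. One bin of chromosome I, which is not described further, took 8.58% to 13.8% of Dam-EMR reads and 6.62% to 25.7% of GFP-Dam reads. Outside it, the Dam-EMR library of round 1 stood apart at 2 places. It held 4.35% of its reads in the V bin 8600001 to 8700000, where the other 5 libraries held 0.259% to 0.398%, and 1.13% in the X bin 8300001 to 8400000, where the others held 0.046% to 0.0985%.

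Read levels were first compared between the genes of different tissues, because Dam methylates open, active chromatin best. The 10 kb bins of 39 body wall muscle genes, 1 bin for each gene midpoint and 37 bins in all, had median levels of 254, 148.1 and 156 CPM (reads scaled to equal library totals) in the Dam-EMR libraries, against 260, 203 and 177 in the GFP-Dam libraries. Over the 8520 bins of II to X the medians were 27.7, 36.6 and 24.4 with Dam-EMR and 26.6, 37.8 and 29.02 with GFP-Dam. The bins of 31 intestine genes, with medians of 40.5, 62.2 and 35.3 in Dam-EMR and 31.5, 55.7 and 35.6 in GFP-Dam, lay above those of all bins in all 6 libraries, and below those of the muscle bins. The bin of myo-3 itself (V, 12226816 to 12234343) held 780, 322 and 917 Dam-EMR reads and 11372, 1228 and 3320 GFP-Dam reads. The bin of the gut transcription factor gene elt-2 held 19, 5 and 103 Dam-EMR reads and 286, 181 and 253 GFP-Dam reads. Single bins do not stand for their lists. With Dam-EMR the bin of the muscle gene unc-98 had 24.3, 47.5 and 17.3 CPM, and that of the gut gene vit-2 had 203, 197 and 25.7 CPM. Housekeeping bins had medians of 223, 155 and 141 with Dam-EMR and 279, 150 and 155 with GFP-Dam. In every library, then, body wall muscle bins and housekeeping bins lay far above the median of all bins, and intestine bins lay between. Hypodermis, neuron and germline bins lay between in every library too, so that place was not particular to intestine. A high level was not particular to muscle, since heat shock bins had medians of 235, 141 and 152 with Dam-EMR and 160, 164 and 160 with GFP-Dam. Pharyngeal muscle bins, with medians of 22.1 to 62.2 in Dam-EMR and 32.01 to 44.01 in GFP-Dam, did not share the level of body wall muscle.

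**Figure D1:**
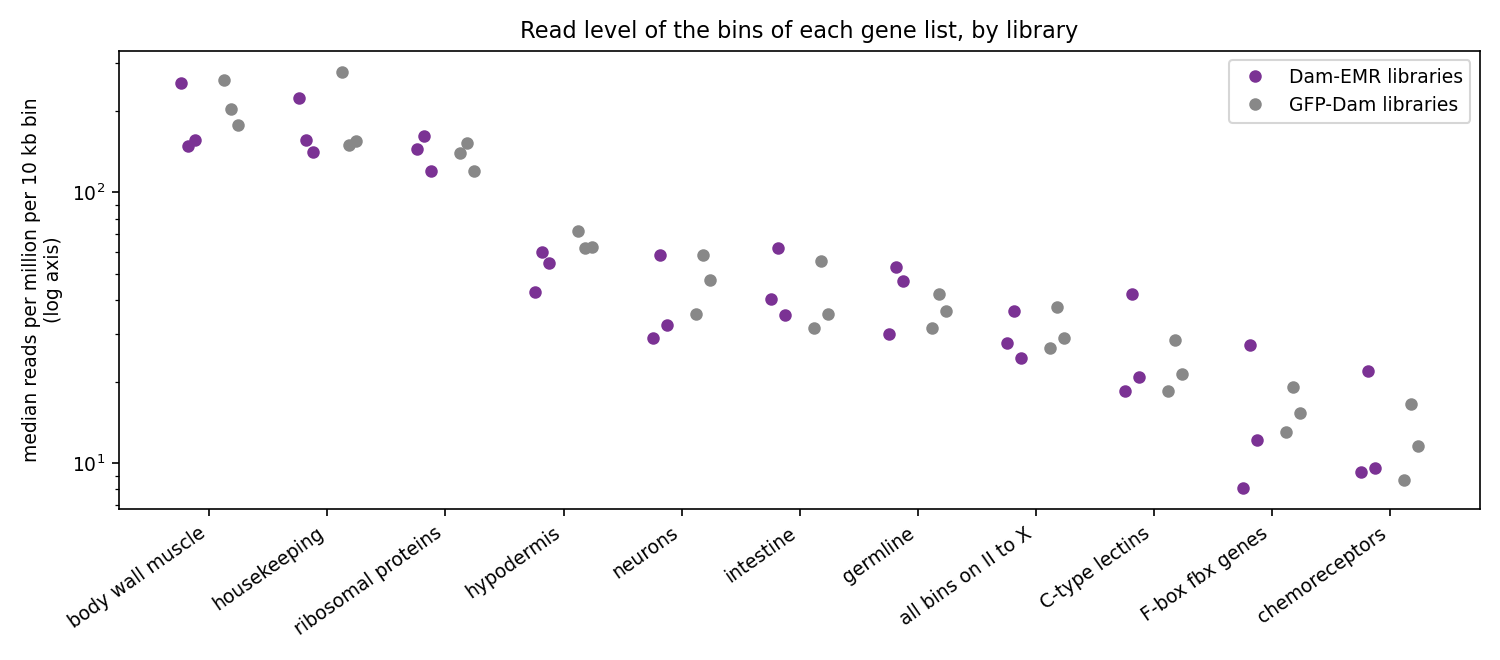
Median CPM (reads scaled to equal library totals, log axis) over the 10 kb bins of each gene list, with 1 point per library, the 3 Dam-EMR libraries left and the 3 GFP-Dam libraries right of each tick. Body wall muscle, housekeeping and ribosomal protein bins lie far above the bins of gut, neuron and germline genes in both fusions, and chemoreceptor bins are among the low ones (9.25, 21.9 and 9.62 with Dam-EMR, 8.64, 16.50 and 11.5 with GFP-Dam).

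The read profiles of the 2 fusions were alike, and the ratio between them was small beside its spread over rounds. Across 1005 bins of 100 kb, the Dam-EMR library of round 1 had a Spearman correlation of 0.953 with GFP-Dam of its own round. Its correlations with the Dam-EMR libraries of rounds 2 and 3 were 0.821 and 0.890. The GFP-Dam libraries had correlations of 0.936 to 0.971 with each other. The log2 ratio of a pair, centred on its median bin, had a standard deviation over bins of 0.48, 0.61 and 0.46 in pairs 1, 2 and 3, whereas counting error accounts for 0.061, 0.080 and 0.039 in the median bin. The ratio profiles of the 3 pairs shared little of this. Pearson correlations over bins were 0.149 between pairs 1 and 2, 0.005 between pairs 1 and 3 and 0.221 between pairs 2 and 3. In 10 kb bins they were 0.098, 0.049 and 0.115. These values describe bins that share libraries and sequence and are no test.

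The 3 pairs also differed in how the ratio ran along the chromosomes. Neighbouring 100 kb bins of II to X had a rank correlation of 0.172 in pair 2, against 0.041 in pair 1 and 0.016 in pair 3. At a distance of 1000 kb it was still 0.148 in pair 2, and −0.030 and −0.049 in pairs 1 and 3. By this correlation a broad pattern over megabases was visible in pair 2 alone, which has the shallowest Dam-EMR library. Some large segments still had 1 direction in all pairs, as given below. Bins with many GFP-Dam reads tended to low ratios in pairs 1 and 2 and not in pair 3. With the GFP-Dam level taken from the 2 other rounds, Spearman's rho over 854 bins was −0.281, −0.340 and 0.147 in pairs 1, 2 and 3.

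Whole chromosomes took similar shares of the reads with both fusions. Without the 5 bins that held over 1% of a library, chromosome V took 16.19%, 17.8% and 16.98% of Dam-EMR reads and 16.0%, 16.6% and 16.42% of GFP-Dam reads. Chromosome II took 14.7%, 17.2% and 15.6% with Dam-EMR and 14.9%, 16.0% and 15.1% with GFP-Dam. The X chromosome took 24.2%, 21.9% and 24.2% with Dam-EMR and 24.8%, 23.02% and 24.7% with GFP-Dam. Chromosomes III and IV averaged 14.6% ± 0.26 and 13.9% ± 0.72 of Dam-EMR reads, against 14.9% ± 0.21 and 13.8% ± 0.34 of GFP-Dam reads (SD, n = 3 each). The libraries of the 2 fusions overlapped on each of these chromosomes. Within pairs, the Dam-EMR share was the higher one in 3 of 3 on V and the lower one in 3 of 3 on X, and these differences were not tested.

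Arms, taken as the outer 33% at each end of a chromosome, had fewer reads than the middle with both fusions, and less so with Dam-EMR. On II to V, the mean log2 reads per bin on arms minus that in the middle was −0.80, −0.49 and −0.91 in the Dam-EMR libraries and −0.92, −0.94 and −0.97 in the GFP-Dam libraries. All 3 Dam-EMR libraries lay above all 3 GFP-Dam libraries, narrowly so in round 3. The Dam-EMR/GFP-Dam ratio was accordingly higher on arms by 0.12, 0.45 and 0.06 in pairs 1, 2 and 3, a mean of 0.21 ± 0.21 (SD, n = 3 pairs). An exact two-sided sign-flip test gave p = 0.25, the smallest that 3 pairs allow, so the difference was positive in 3 of 3 pairs and did not pass a threshold of 0.05. Without round 2 the mean was 0.09. With the reads of all bins of a zone summed, in place of a mean over bins, it was 0.08 and the exact p was 0.75.

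The contrast was also taken on each chromosome, and the difference between chromosomes was not tested. On IV the arms exceeded the middle by 0.14, 0.28 and 0.16 in pairs 1, 2 and 3, a mean of 0.19 ± 0.07 that exceeds the spread between pairs. On V the values were 0.14, 0.80 and 0.11, with a mean of 0.35 ± 0.39, and on II they were 0.06, 0.45 and 0.01, with a mean of 0.18 ± 0.24. The largest value on both was that of pair 2. On III the 3 pairs gave 0.14, 0.13 and −0.11, a mean of 0.05 ± 0.14 with no common direction. On X they gave 0.01, −0.01 and −0.13, a mean of −0.04 ± 0.08. No chromosome could pass the exact sign-flip test with 3 pairs.

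**Figure D2:**
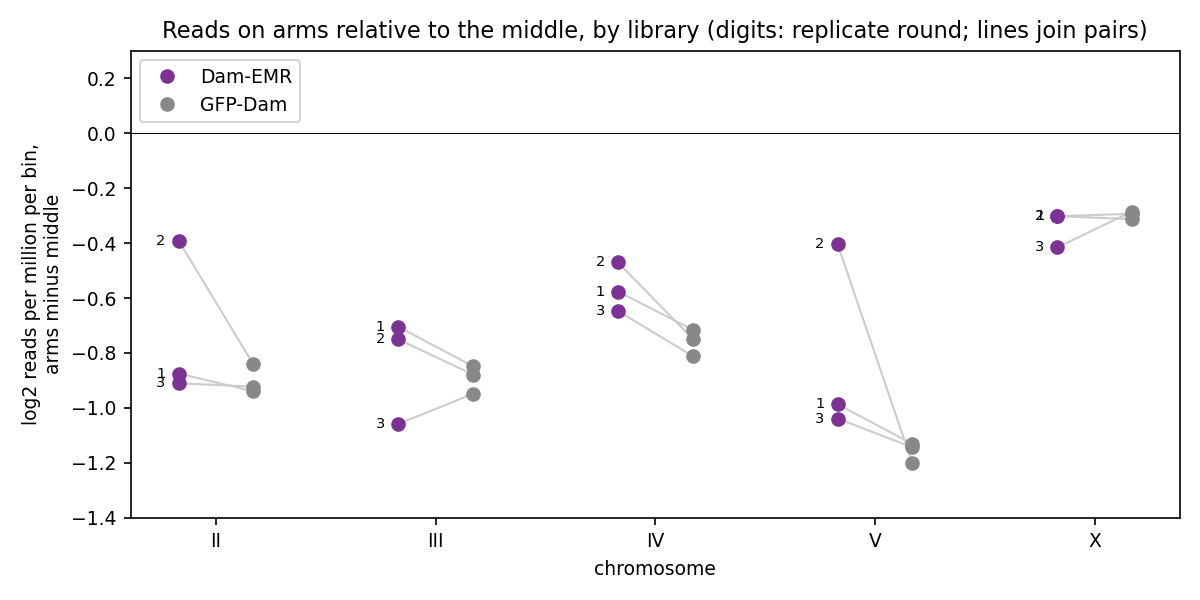
Mean log2 CPM per 100 kb bin on the arms minus that in the middle, for each chromosome and library, with Dam-EMR libraries left and GFP-Dam libraries right, lines joining the pairs and digits giving the round. On II and V the round 2 Dam-EMR library (−0.39 and −0.40) lies apart from all others, and on X both fusions lie between −0.42 and −0.29.

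Divided into 10 segments of equal length, the chromosomes showed where the ratio departed from the pair's median. The highest was the ninth segment of V, on its right arm, with 0.31, 1.10 and 0.14 in pairs 1, 2 and 3. The second segment of V, on the left arm, had 0.33, 0.62 and 0.17, and the eighth had 0.09, 0.63 and 0.17. The outermost segments of V were lower than their inner neighbours, with 0.13, 0.38 and −0.12 at the left end and −0.11, 0.22 and 0.14 at the right end. On II the second and the third segments averaged 0.34 and 0.33, carried by 0.77 and 0.78 in pair 2, while pair 3 gave −0.07 and 0.19.

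On chromosome IV, a stretch of the middle and parts of the arms had 1 direction in all pairs. The sixth segment of IV lay at −0.19, −0.27 and −0.29, a mean of −0.25 ± 0.05, and the seventh at −0.02, −0.13 and −0.18. The third, on the left arm, lay at 0.25, 0.24 and 0.08, and the ninth at 0.11, 0.09 and 0.05. On V the sixth segment was below the median in 3 of 3 pairs as well, at −0.10, −0.47 and −0.09. On X no segment had a mean beyond 0.10 in either direction. The leftmost, at 0.04, 0.07 and −0.09, did not differ from 0 beyond the spread between pairs. On III the pairs diverged in the second segment, which had 0.35, 0.01 and −0.26. Other segments of III had 1 direction in all pairs, such as segment 1 at 0.27, 0.01 and 0.04 and segment 8 at −0.08, −0.20 and −0.03. The number of such segments was not compared between chromosomes.

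**Figure D3:**
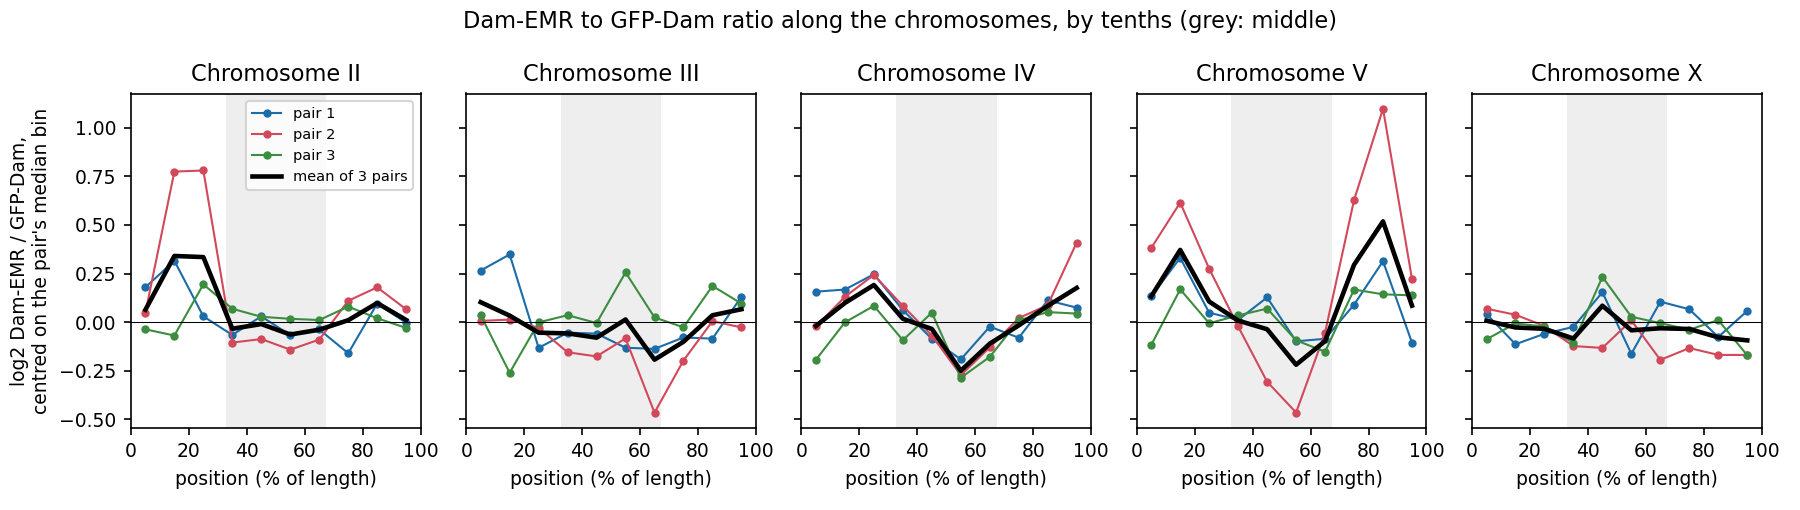
Mean log2 Dam-EMR/GFP-Dam ratio over the 100 kb bins of each of 10 segments of chromosomes II, III, IV, V and X, centred on each pair's median bin, with a coloured line per pair, the mean of the 3 pairs in black and the middle zone in grey. Pair 2 rises furthest, to 1.10 in the ninth segment of V, and the lines cross 0 repeatedly on III and X.

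Each chromosome was then tested in 3 zones, a left arm, a middle and a right arm, with limma over 18 zones. The right arm of V (14100001 to 21000000) was the only zone called, 1 of 18 or 5.56%, with 0.09, 0.62 and 0.13 in the 3 pairs and a mean of 0.28 ± 0.29 (SD, n = 3; limma adjusted p = 0.0251). limma gave all zones 1 shared spread of 0.139, smaller than the SD of this zone, and the call did not hold without any 1 of the rounds (limma adjusted p = 0.104, 0.407 and 0.0713 without rounds 1, 2 and 3). The left arm of II had 0.15, 0.47 and 0.03, a mean of 0.22 (limma adjusted p = 0.0941), and the left arm of V had 0.16, 0.40 and 0.01, a mean of 0.19 (limma adjusted p = 0.129). The middle zones of IV and V were lowest, at −0.12 ± 0.06 and −0.11 ± 0.15 (limma adjusted p = 0.502 for both). The left, middle and right zones of X lay at −0.03 ± 0.03, −0.01 ± 0.07 and −0.07 ± 0.11.

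**Figure D4:**
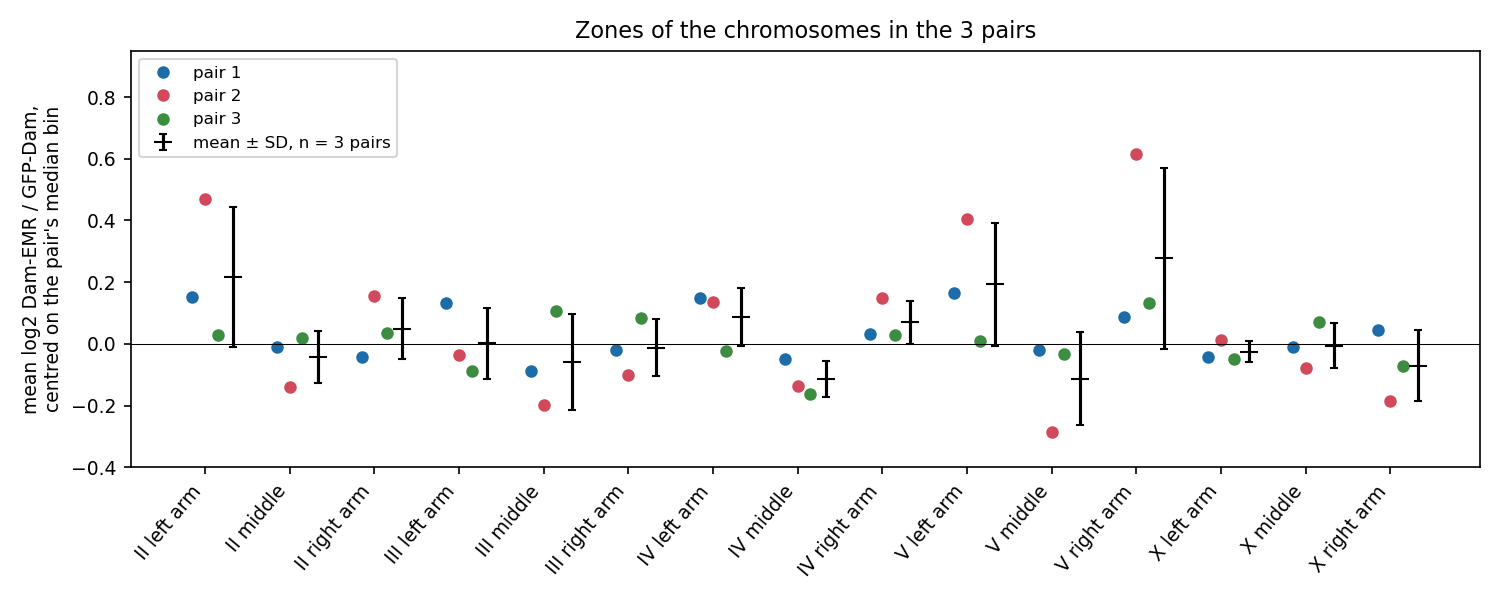
Mean centred log2 Dam-EMR/GFP-Dam ratio in each zone of II, III, IV, V and X, with 1 coloured point per pair and the mean ± SD of the 3 pairs in black. The arms of V and the left arm of II are high mainly through pair 2, at 0.62, 0.40 and 0.47, and most other zones scatter around 0.

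The map was also counted by bins, without regard to the size of the ratio. Of 1005 bins of 100 kb, 13.3% were above the median of their pair in 3 of 3 pairs and 142 (14.1%) below it, and of 10028 bins of 10 kb 13.7% and 13.5%. Past 2-fold in all pairs were 1 bin above (0.0995%) and 0 below (0%) at 100 kb, and 239 above (2.38%) and 172 below (1.72%) at 10 kb. On the right arm of V 21 of 69 bins (30.4%) were above in all pairs and 5 (7.25%) below, whereas in the middle of V 6 of 72 (8.33%) were above and 19 (26.4%) below. The left arm of IV had 14 of 58 bins (24.1%) above and 4 below, and its middle had 5 of 59 above and 13 (22%) below. On the left arm of II 11 of 50 bins (22%) were above and 2 below. The left end zone of X had 4 of 59 bins (6.78%) above and 8 (13.6%) below.

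Runs of 3 neighbouring bins of 1 direction in all pairs were 7 in number, and no run was longer. Single bins of II to X were above in all pairs in 14.1% and below in 13.3% of 854. The number of runs that these shares alone would give was not computed, so the runs are a description. On the left arm of II such a run (2500001 to 2800000) averaged 0.27, 0.75 and 0.39 in pairs 1, 2 and 3 and holds the sri chemoreceptor genes sri-36, sri-74 and sri-77. The run on the left arm of IV (3600001 to 3900000) averaged 0.25, 0.39 and 0.42 and holds cha-1 and unc-17, which encode the synthesis and vesicle loading of acetylcholine from 1 locus. The run on the right arm of V (16700001 to 17000000) averaged 0.14, 0.87 and 0.49 and holds chemoreceptor genes of the srh family. In the middle of V, 3 runs lay below the median. The run from 11400001 to 11700000 averaged −0.25, −0.46 and −0.42. It holds the cuticle collagen genes col-156 and col-157 and the chemoreceptor genes srh-1, srx-85, srx-86 and srx-87. The run from 9000001 to 9300000 averaged −0.02, −0.38 and −0.21 and holds the chemoreceptor genes srx-1, srx-2, srx-3 and str-94. Chemoreceptor genes thus lay in runs of both directions. The run on III (4000001 to 4300000), with the tubulin gene tbb-2, averaged −0.20, −0.37 and −0.28.

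The gene content of the bins above and below the median in all 3 pairs was counted, with no test. On II to X the 120 bins above held 2.86 chemoreceptor genes each, the 114 below held 0.728, and the 620 mixed bins held 1.37. F-box genes of the fbx families numbered 0.792, 0.0439 and 0.332 per bin in the same order, and C-type lectin genes 0.567, 0.149 and 0.190. Nuclear hormone receptor genes, at 0.367, 0.228 and 0.284, and homeobox ceh genes, at 0.0667, 0.0702 and 0.0645, were more even. All protein-coding genes numbered 21.3, 20.1 and 19.8. Chemoreceptor, F-box and lectin genes cluster on autosomal arms, and the part of position in these counts was not tested.

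No single 100 kb bin passed the test. edgeR's quasi-likelihood test with the round as a block called 0 of 1004 bins higher (0%) and 0 lower (0%) at an adjusted p under 0.05, and the smallest adjusted p was 0.229. At an unadjusted p under 0.05 it had 39 bins higher (3.88%) and 29 lower (2.89%), 68 in all. DESeq2 called 4 higher (0.398%) and 0 lower, and limma on the pair ratios 0 and 0. Outside chromosome I the DESeq2 calls were the fbxb-31 bin of II, the unc-25 bin of III (DESeq2 adjusted p = 0.00882 and 0.0176) and a V bin from 4200001 with nlp-9 and srh-204 (DESeq2 adjusted p = 0.0442). The bins given next have the smallest p among those of 1 direction in all pairs, and none passed.

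On the right arm of V the bin 18700001 to 18800000, with the C-type lectin genes clec-250 to clec-254 and the nuclear receptor gene nhr-241, held 3687, 510 and 1198 CPM with Dam-EMR and 229, 302 and 401 with GFP-Dam. All 3 Dam-EMR libraries lay above all 3 GFP-Dam libraries, in a bin picked for its small p. The share of all bins with such a separation was not counted. The edgeR log2 ratio was 2.07 (SE 0.46, edgeR adjusted p = 0.229), and in the authors' deposited table it stands at 2.79, since they averaged linear ratios, in which pair 1 weighs most. Without round 1 the edgeR value was 1.13 (adjusted p = 0.21). The bin was called without round 2, without round 3 (edgeR adjusted p = 3.1e-17 and 1e-13) and with library totals alone (edgeR adjusted p = 0.00829), and not by DESeq2 (adjusted p = 0.487). Because edgeR shares its spread over bins, these p-values do not come from the spread of this bin's own pairs alone. In rounds 1 and 3 most of these reads came from 1 stretch of 10 kb. The bin 18760001 to 18770000, which overlaps F11D11.3, F11D11.4, F11D11.22 and clec-255, held 94.6%, 5.02% and 85.3% of the Dam-EMR reads of the larger bin, against 26.4%, 4.73% and 45.8% of its GFP-Dam reads. Without that stretch the centred log2 ratios of pairs 1, 2 and 3 were 0.31, 0.77 and −0.39, against 4.07, 0.77 and 1.49 with it.

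The bin on the right arm of III (12900001 to 13000000) holds unc-25, which encodes the enzyme that makes the transmitter GABA, and the neuropeptide gene flp-14. It held 1657, 935 and 934 CPM with Dam-EMR and 474, 725 and 437 with GFP-Dam, with an edgeR log2 ratio of 1.09 (SE 0.25, adjusted p = 0.229). Without round 1 it was 0.69 (edgeR adjusted p = 0.505), and the bin was called without round 2, without round 3 and with library totals alone (edgeR adjusted p = 3.2e-07, 0.00375 and 0.0345). Neither gene carried that ratio. The 10 kb bin of unc-25 (gene at 12942651 to 12949883) held 24, 4 and 55 Dam-EMR reads and 247, 61 and 168 GFP-Dam reads, an edgeR log2 ratio of −0.10 (SE 0.98, adjusted p = 0.996). The flp-14 bin (12910510 to 12914930) held 43, 100 and 66 Dam-EMR reads and 805, 613 and 426 GFP-Dam reads, or −0.38 on the log2 scale (SE 0.53, edgeR adjusted p = 0.987). The bin of the nuclear pore gene npp-25 held 5, 0 and 0 Dam-EMR reads, against 136, 13 and 74 GFP-Dam reads.

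The high reads of the III bin lay in its stretch from 12960001 to 12970000, which was higher in Dam-EMR and passed the test. It overlaps ttm-1 (12952969 to 12966995), which encodes a zinc transporter, and bckd-1A (12967937 to 12972498), which encodes a subunit of the branched-chain keto acid dehydrogenase. Dam-EMR reads numbered 1088, 6 and 1154, and GFP-Dam reads 288, 16 and 144. In CPM these are 1257, 10.97 and 370 with Dam-EMR and 17.3, 5.87 and 17.6 with GFP-Dam. Rounds 1 and 3 were far above every GFP-Dam library, and round 2 lay below 2 of them. The log2 ratio was 4.43 (SE 0.74, edgeR adjusted p = 0.035). The pairs gave centred log2 ratios of 6.21, 1.16 and 4.64, and edgeR draws its SE in part from all bins. This stretch was 1 of only 2 bins called among 9183 tested at 10 kb (0.0218%), the other being on chromosome I. At 10 kb 0 were called lower, and 401 bins had an unadjusted p under 0.05. DESeq2 called 15 higher (0.163%) and 1 lower (0.0109%), and limma on the pair ratios 0 and 0. Without round 1, and without round 3, this III bin was not called (edgeR adjusted p = 0.0711 and 1.00), nor was it with no replicate block (edgeR adjusted p = 0.795). The rest of its 100 kb had centred log2 ratios of 0.05, 0.38 and 0.33 in pairs 1, 2 and 3.

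In 2 other higher bins the ratio stayed positive in all pairs when their leading 10 kb were left out. The bin on the left arm of II (3600001 to 3700000), with the F-box genes fbxb-31 and fbxb-33 and the chemoreceptor genes srx-97, srx-98 and srx-101, held 404, 554 and 300 CPM with Dam-EMR and 146, 210 and 168 with GFP-Dam. Its log2 ratio was 1.23 (SE 0.31, edgeR adjusted p = 0.414), and the pairs gave 1.53, 1.41 and 0.74 with all reads and 1.16, 1.36 and 0.76 without the leading stretch. On V, a left-arm bin (700001 to 800000) stood at 0.59 on the log2 scale (SE 0.18, edgeR adjusted p = 0.709), from 1093, 990 and 1175 CPM with Dam-EMR and 818, 683 and 667 CPM with GFP-Dam. There the 10 kb around icl-1, which encodes the glyoxylate cycle enzyme of fat-to-sugar conversion, held 76.3%, 68.6% and 78.3% of Dam-EMR reads and 76.7%, 62.0% and 67.7% of GFP-Dam reads. The mean ratio without it was 0.31 ± 0.18.

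The lower bins with the smallest p lay in the middle of IV and X and on the left arm of IV. The bin 10500001 to 10600000 of IV, which holds him-8 and its relatives zim-1, zim-2 and zim-3, zinc finger genes whose proteins bind the meiotic pairing centres, had 660, 645 and 909 CPM with Dam-EMR and 1025, 1644 and 1164 with GFP-Dam. Its log2 ratio was −0.78 (SE 0.21, edgeR adjusted p = 0.429). Of its reads, 65.8%, 68.6% and 76.5% with Dam-EMR and 74.1%, 81.0% and 75.5% with GFP-Dam came from its first 10 kb, which overlap the calcineurin gene tax-6 (10492869 to 10501600) and not him-8 (10561905 to 10563974). Without them the pairs gave −0.16, −0.60 and −0.51. The IV bin 8700001 to 8800000, with npr-44 and clec-182, had −0.89 (SE 0.30), the X bin 6100001 to 6200000, with the kynureninase gene kynu-1 and the homeobox gene ceh-54, −0.53 (SE 0.19), and the IV bin 2600001 to 2700000, with the neurogenin gene ngn-1, −0.54 (SE 0.20). All 3 had an edgeR adjusted p of 0.709.

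**Figure D5:**
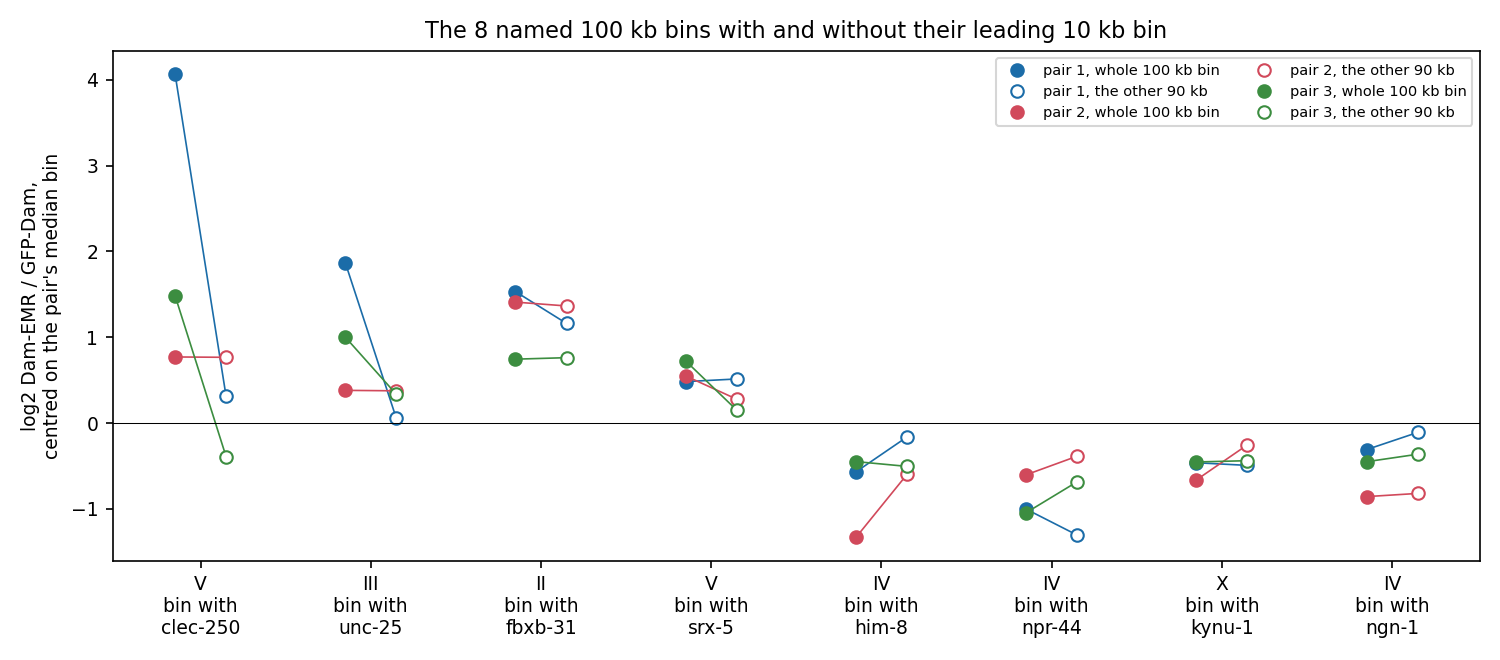
Centred log2 Dam-EMR/GFP-Dam ratio in the 8 named 100 kb bins, with 1 colour per pair, filled points for the whole bin and open points for the bin without its leading 10 kb. The clec-250 and unc-25 bins fall in pairs 1 and 3 (to 0.31 and −0.39, and to 0.05 and 0.33) once the leading stretch is left out, and the fbxb-31 bin stays between 0.76 and 1.36.

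At 10 kb, the 3 other higher bins with the smallest p did not pass by edgeR, and DESeq2 called each of them. The stretch of V just described (18760001 to 18770000) held 3151, 14 and 3189 Dam-EMR reads and 1008, 39 and 1503 GFP-Dam reads, an edgeR log2 ratio of 3.27 (SE 0.72, adjusted p = 0.432; DESeq2 adjusted p = 0.000524). It also passed by edgeR with no filter on low counts (adjusted p = 0.0339) and without round 2 (adjusted p = 5.6e-05), and its value was 1.92 without round 1. A bin inside tbc-17 on II (12710001 to 12720000), a gene named for the TBC domain of Rab GTPase-activating proteins, held 595, 428 and 178 CPM with Dam-EMR and 182, 107 and 77.0 with GFP-Dam, or 1.78 on the log2 scale (SE 0.40, edgeR adjusted p = 0.432, DESeq2 adjusted p = 0.00832). The pairs gave 1.74, 2.13 and 1.47. A bin on the right arm of IV (13650001 to 13660000) held only 29, 46 and 126 Dam-EMR reads, against 32, 15 and 28 GFP-Dam reads, with centred ratios of 4.16, 4.00 and 3.78 (edgeR adjusted p = 0.432, DESeq2 adjusted p = 1.6e-05). It overlaps C08F11.12, C08F11.17, Y45F10C.1 and Y45F10C.6.

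Low bins of 10 kb were limited by depth. On II to X 188 of 8520 bins (2.21%) held no read in any Dam-EMR library, of which 62 were also empty with GFP-Dam. A bin on the right arm of V with Y38H6A.3 (20340001 to 20350000) held 0, 0 and 0 Dam-EMR reads and 389, 27 and 71 GFP-Dam reads. At the GFP-Dam share of each round, 52.7 reads would fall there in the 3 Dam-EMR libraries together. With 3 reads allowed for their 0, Dam-EMR was at least 17.6-fold lower. A bin of IV that overlaps no protein-coding gene (13850001 to 13860000) held 0, 0 and 0 Dam-EMR reads and 138, 39 and 126 GFP-Dam reads, at least 21-fold lower by the same floor. The bin of the chemoreceptor gene srr-8 on V held 1, 11 and 10 Dam-EMR reads and 390, 189 and 508 GFP-Dam reads. The IV bin of pole-2 (a DNA polymerase epsilon subunit), snrp-3 (a splicing snRNP protein) and hst-1 (a heparan sulfate sulfotransferase) held 0, 0 and 4 Dam-EMR reads and 188, 62 and 187 GFP-Dam reads. All 4 had an edgeR adjusted p of 0.987, and floors and bounds cover counting error only.

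Among 25 gene lists, no bin of any list passed edgeR's test over all 10 kb bins, so each is given by its counts and medians. DESeq2 called some of these bins, and its adjusted p stands beside those named. The median log2 ratio over all 7754 tested bins of II to X was −0.10, and 186 of them were higher and 150 lower at an unadjusted p under 0.05 (edgeR). Over all 9183 nuclear bins these shares were 2.41% higher and 1.96% lower. Chemoreceptor genes, the large families of seven-transmembrane receptors expressed mostly in sensory neurons, had a median of 0.01 over 650 tested bins, with 25 higher and 7 lower at that threshold. Centred pair medians over their 778 bins were 0.18, 0.37 and 0.03 in pairs 1, 2 and 3. The 1 read added to each library tends to raise such ratios where Dam-EMR reads are few, and its part was not tested. The bin of srw-133 and srw-134 on the left arm of V held 20, 111 and 116 Dam-EMR reads and 37, 18 and 71 GFP-Dam reads, an edgeR log2 ratio of 3.57 (SE 0.82, adjusted p = 0.432; DESeq2 adjusted p = 0.000256). The bin of srh-227 on IV held 38, 77 and 135 Dam-EMR reads and 56, 58 and 71 GFP-Dam reads, or 3.04 on the log2 scale (SE 0.75, edgeR adjusted p = 0.745, DESeq2 adjusted p = 0.00065). DESeq2 also called the chemoreceptor bins of srw-112 and of srz-54 on V (adjusted p = 0.00536 and 0.0406).

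Other families of the arms were more mixed. F-box fbx genes, whose products pick substrates for ubiquitin ligases, had a median of −0.04 over 177 tested bins, with 7 higher and 2 lower at an unadjusted p under 0.05. Their pair medians were 0.01, 0.45 and 0.01. C-type lectin genes, many of them induced in immunity, had −0.01 over 137 bins, 5 higher and 2 lower, and pair medians of 0.02, 0.44 and 0.21. Nuclear hormone receptor genes had −0.12 over 168 bins, 2 higher and 5 lower, and the bath and math genes, with MATH or BTB domains, −0.40 over 32 bins, 2 higher and 3 lower, with pair medians of −0.56, 0.41 and −0.60. The F-box bin with the smallest p, that of fbxa-148 on V, held 52, 80 and 366 Dam-EMR reads and 416, 24 and 175 GFP-Dam reads, or 2.70 on the log2 scale (SE 0.70, edgeR adjusted p = 0.928, DESeq2 adjusted p = 0.0113). Among lectin genes, the bin of clec-62 and clec-63 on II held 42, 46 and 115 Dam-EMR reads and 147, 36 and 77 GFP-Dam reads, with centred ratios of 2.51, 2.79 and 2.22 (edgeR adjusted p = 0.987, DESeq2 adjusted p = 0.0466). The clec-248 bin on V, with centred ratios of 3.99, 4.65 and −0.81, was high in rounds 1 and 2 and low in round 3 (edgeR adjusted p = 0.987, DESeq2 adjusted p = 0.026). The bin of fbxa-179 on the right of X held 0, 4 and 5 Dam-EMR reads, and its centred ratios of −4.10, −2.30 and −3.45 were low in all 3 pairs. In each of the chemoreceptor, F-box and lectin lists the largest of the 3 pair medians was that of pair 2.

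Genes of muscle and of basic cell functions lay near the median of all bins. Body wall muscle genes had a median log2 ratio of −0.07 over 37 tested bins, with 0 higher and 1 lower at an unadjusted p under 0.05. That bin was of unc-112, the kindlin of the muscle attachment sites, which held 50, 33 and 73 Dam-EMR reads and 1832, 431 and 967 GFP-Dam reads (log2 −1.41, SE 0.55, edgeR adjusted p = 0.987). The myo-3 bin had 0.25 (SE 0.38, edgeR adjusted p = 0.987), and that of the titin-like gene ttn-1 0.33 (SE 0.45, edgeR adjusted p = 0.987). The pair medians of the muscle bins were −0.01, −0.31 and −0.12, and 1 of the 37 bins (2.7%) was above the median in all pairs and 4 (10.8%) below. Ribosomal protein genes had 0.15 over 52 bins, 1 higher and 0 lower, with the evenest pair medians of any list at 0.12, 0.12 and 0.16, and 9 of their 52 bins (17.3%) were above the median in all pairs and 1 (1.92%) below, against 14.1% and 13.3% of all bins. The ribosomal protein bin with the smallest p was that of rpl-26 on II, which held 124, 128 and 330 Dam-EMR reads and 692, 217 and 432 GFP-Dam reads, with centred ratios of 1.83, 1.69 and 1.26 (edgeR adjusted p = 0.987). Housekeeping genes had 0.12 over 18 bins, and none passed in either direction, with 4 bins (22.2%) above the median in all pairs and 0 below.

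Genes of other tissues and of the nuclear envelope were as scattered. Intestine genes had −0.07 over 29 bins, with 2 higher and 1 lower at an unadjusted p under 0.05. The lower bin, that of cpr-1 on V, had the smallest p, with centred ratios of −1.95, −2.87 and −1.82 (log2 −2.37, SE 0.88, edgeR adjusted p = 0.987). The 2 higher were of the yolk protein genes vit-2 and vit-5 on X at 1.47 (SE 0.70) and 1.63 (SE 0.64). In the 3 pairs vit-2 had 1.71, 3.24 and −0.62, so that round 3 went the other way, and vit-5 had 1.89, 2.63 and 0.35. Neuron genes had −0.10 over 46 bins, 2 higher and 1 lower. Of these, the bin of cha-1 on IV, which unc-17 overlaps only in part, held 76, 147 and 1111 Dam-EMR reads and 940, 301 and 568 GFP-Dam reads. Its centred ratios were 0.68, 1.42 and 2.61 in the 3 pairs (log2 1.57, SE 0.47, edgeR adjusted p = 0.987). The bin of mec-7, a touch neuron tubulin gene on X, held 444, 185 and 769 Dam-EMR reads and 5262, 418 and 1547 GFP-Dam reads, with ratios of 0.73, 1.27 and 0.64. Both bins were high in all 3 pairs, and neither passed the test over all bins. The 1 lower neuron bin, that of unc-64 on III, was low in all 3 pairs, at −2.88, −1.75 and −2.92 (log2 −2.99, SE 1.21, edgeR adjusted p = 0.987). Nuclear envelope and anchor genes had 0.01 over 14 bins, 0 higher and 1 lower, that of set-25, the H3 lysine 9 methyltransferase gene, with 2, 2 and 5 Dam-EMR reads and 433, 54 and 141 GFP-Dam reads in a bin it shares with unc-64. Hypodermis genes had 0.05 over 20 bins, pharyngeal muscle genes 0.03 over 11 and germline genes 0.01 over 25. The 6 Hox genes had −0.24. The bin of mab-5 held 3, 8 and 297 Dam-EMR reads and 839, 204 and 540 GFP-Dam reads, so that round 3 went against the other rounds. The heat shock bin of hsp-16.41 and hsp-16.2 on V, whose promoter sequence the constructs carry as well, held 347, 98 and 848 Dam-EMR reads and 2660, 446 and 1376 GFP-Dam reads (log2 0.86, SE 0.41, edgeR adjusted p = 0.987).

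The remaining lists had medians between −0.46 and 0.19 and at most 3 bins past an unadjusted p under 0.05 in either direction. UDP-glucuronosyltransferase genes had −0.46 over 42 tested bins, with 0 and 0 past it, and pair medians over their 49 bins of 0.04, −0.11 and −0.10. Histone genes had −0.34 over 19 tested bins, 1 higher and 0 lower, but pair medians over all their 23 bins of 0.05, 0.69 and 0.33, so the sign depends on the measure. Of these 23 bins 8 (34.8%, against 14.1% of all bins) were above the median in all pairs, and reads of near-identical histone copies may be split between bins. Homeobox ceh genes had −0.21 over 48 bins, neuropeptide genes −0.18 over 85, nucleoporin genes −0.16 over 18 and cytochrome P450 genes −0.12 over 52. The neuropeptide and nucleoporin bins with the smallest p were high in all pairs. The flp-20 bin on X, a neuropeptide gene, held 130, 215 and 841 Dam-EMR reads and 1572, 323 and 984 GFP-Dam reads, and the npp-10 bin on III, a nucleoporin gene, held 106, 74 and 504 Dam-EMR reads and 1506, 71 and 455 GFP-Dam reads (edgeR adjusted p = 0.987 for both). Cuticle collagen genes had 0.10 over 110 bins, with 0 higher and 0 lower, heat shock genes 0.17 over 13, major sperm protein genes 0.18 over 23 and insulin-like genes 0.19 over 17.

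No difference between this strain and the other 3 passed a test. The arms of II to V exceeded the middle by 0.21 ± 0.21 in the 3 GFP-LMN pairs and by 0.27 ± 0.28 in the 9 pairs of the other 3 strains, which ran from −0.12 to 0.89. The difference of −0.06 had an exact two-sided permutation p of 0.719 over 64 arrangements within rounds, and 0.953 adjusted over 6 such comparisons. It turned to 0.12 without round 1. On single chromosomes the difference ran from −0.20 on II to 0.02 on IV, all with an adjusted p of 0.953 in the same exact test. edgeR called 0 of 1004 bins of 100 kb (0%) whose ratio was higher or lower than in the other strains, with 14 at an unadjusted p under 0.05, and DESeq2 called 0, with 20. The strains share rounds but no library. As a description over bins, the ratio profile of pair 1 had Pearson correlations of 0.37 to 0.45 with the round 1 pairs of the other strains, against 0.149 and 0.005 with pairs 2 and 3 of its own strain. Pair 2 had its highest correlation, 0.484, with a round 3 pair of the GFP-LMN_cec4 strain, and 0.221 was the highest within its own strain.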

How the data were processed

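Methylated GATC fragments of 200 ng genomic DNA cut with DpnI for 6 h were amplified and sequenced, per the labels. The authors deposited raw read counts per 100 kb and 10 kb bin of ce11 (WBcel235), and at 100 kb the log2 ratio of each strain. Those log2 values equal, within rounding, the log2 of the mean of 3 linear ratios of library shares. The aligner is not given in the sources used here. Mitochondrial reads and 2 bins of 10 kb with the value 1 in all libraries were left out, leaving 1005 and 10028 bins. Chromosome I stayed in all fits.

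For the tests, edgeR 4.0.16 in R 4.3.3 took these counts with TMM scaling, filterByExpr and the round as a block, and its quasi-likelihood p-values had Benjamini-Hochberg adjustment. DESeq2 1.42.0 and limma 3.58.1 were alternatives, and limma tested zones. Pair ratios had 1 read added. Scripts were tested on simulated data. The members, gene lists and tests were chosen with earlier results of these data known. Named bins were those with the smallest p among bins of 1 direction in all pairs, 4 in each direction, and named genes those with the smallest p of each list. A gene was given the 10 kb bin of its midpoint, with RefSeq positions. The leading 10 kb of a named bin, by Dam-EMR reads for higher bins and GFP-Dam reads for lower bins, was left out as an alternative added after seeing the data. Same-numbered libraries deviated together (Pearson r of deviations from the group means 0.386, 0.364 and 0.102 over bins), and the design text has all strains grown in parallel in each round. Amplified reads are not independent molecules. The p-values of edgeR, DESeq2 and limma rest on a spread between 3 rounds that is estimated in part from all bins or zones together. A bin or zone whose own pairs differ widely can therefore have a small SE and a small p.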

Additional observations from a re-analysis of the deposited data

Results flagged for a closer look

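Some reads fell outside the nuclear bins. Mitochondrial reads numbered 9, 0 and 54 with Dam-EMR and 9, 14 and 2 with GFP-Dam, a mean of 9.09 CPM with Dam-EMR against 1.97 with GFP-Dam. The Dam-EMR mean lay above the highest GFP-Dam library (5.13), but the libraries of the 2 fusions overlapped, round 2 went the other way, and no test was made.

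The V bin 8650001 to 8660000 has no 10 kb count, and its reads were taken as the 100 kb count less the other 9 bins. They made up 4.24%, 0.0906% and 0.145% of the Dam-EMR libraries, a mean of 1.49%, and 0.219%, 0.101% and 0.0736% of the GFP-Dam libraries, a mean of 0.131%. The Dam-EMR excess rests on round 1.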

How the results depend on the processing

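For 100 kb bins higher in Dam-EMR, where 0 were called, DESeq2 gave 4, library totals alone 3, and leaving out one round 0 to 7. For lower bins leaving out one round gave 0 to 2. For the 2 bins of 10 kb called higher, DESeq2 gave 15, limma on pair ratios 0, the fit with no replicate block 0, and leaving out one round 1 to 5. For lower 10 kb bins DESeq2 gave 1 and leaving out one round 0 to 1. Library totals alone put the median log2 ratio of all 10 kb bins at −0.25, against −0.11 with TMM and 0.09 with no replicate block. The 1 zone called was not called with no replicate block (0), with arms of 25% (0), with summed reads (0) or without any one round (0 to 0). The arm minus centre value of II to V stayed positive, at 0.09 to 0.29 without one round, and its difference from the other strains ran from −0.28 to 0.12.

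Among single zones, summed reads turned the left arm of III to −0.024, its right arm to 0.010, the middle of V to 0.17 and that of X to 0.076, arms of 25% turned the right arm of III to 0.049, and with no replicate block the middle of X was at 0.0051. Without one round, the ranges were −0.074 to 0.0051 for the middle of II, −0.0042 to 0.094 for its right arm, −0.062 to 0.047, −0.14 to 0.0099 and −0.060 to 0.032 for the left arm, middle and right arm of III, and −0.043 to 0.030 for the middle of X. Arm minus centre of X ran from −0.070 to 0.0010. The cause of these changes was not tested. No named bin that was compared changed the sign of its fitted value or its mean ratio. Bins without a Dam-EMR read and bins named from gene lists were not compared. In pair 3 alone, the V bin 18700001 to 18800000 turned from 1.49 to −0.39 without its leading 10 kb.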
